A study of Mus musculus with 4 samples.

Results

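The Gimap genes encode the GTPases of immunity-associated proteins, and in the mouse they lie side by side on chromosome 6. Chromatin accessibility at this cluster was taken from ATAC-seq, in which the Tn5 transposase cuts and tags open DNA. The 8 members are Gimap8, Gimap9, Gimap4, Gimap6, Gimap7, Gimap1, Gimap5 and Gimap3, in the order of their coordinates, out of 21631 protein-coding genes compared. A region means a peak of the deposited lists, and it was taken as part of the cluster when it overlapped a member's gene body or the 10 kb on either side. These windows join into 1 stretch from 48637186 to 48780851 (mm10). It held 23 of 76814 regions in the DN3 control, 22 of 76437 in the Scd1-deficient DN3 library, 25 of 46576 in the naive CD4 control and 30 of 51297 in the Scd1-deficient naive CD4 library. Merged over the 4 lists, these were 29 of 90270 joint regions.

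The libraries came from untreated primary mouse cells. DN3 thymocytes were sorted from the thymus as lineage-negative, CD4-, CD8-, CD44-, CD25+ cells, and naive CD4 T cells were isolated from the spleen with magnetic beads. Each cell type was taken from mice deficient in Scd1, a desaturase of fatty acids, and from control littermates, whose titles carry the letters HZ without an explanation. The labels give no strain, age, deleted segment or number of animals per library, and the genotype was not checked from the lists. There was 1 library per group, so no group has replicates and no test was run. The 2 genotypes of a cell type were used to see whether a difference between the cell types appeared in both.

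GIMAP proteins bind GTP through a domain shared by the whole family, and several of them sit on membranes inside the cell through a hydrophobic tail. They are known mainly from lymphocytes, where they act on survival, lysosomes and autophagy. Loss of Gimap5 in mice or rats depletes peripheral T cells, and loss of Gimap1 depletes mature T and B cells. DN3 cells are the thymic stage at which the T cell receptor beta chain is assembled, while naive CD4 T cells are long-lived cells that circulate without having met antigen.

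The 250 bases before the annotated start of 5 members are shown: the starts of Gimap4 and Gimap3 were called in naive cells alone, those of Gimap6 and Gimap7 were over 2-fold higher there, and Gimap5 had the strongest start in the DN3 control. They are from RefSeq on GRCm38.p6, the assembly of mm10, and are written 5′ to 3′ along the gene. They span chr6:48684328-48684577 on the plus strand for Gimap4, chr6:48770852-48771101 on the minus strand for Gimap3, chr6:48708245-48708494 on the minus strand for Gimap6, chr6:48718371-48718620 on the plus strand for Gimap7 and chr6:48745947-48746196 on the plus strand for Gimap5. Capitals mark exact matches, on either strand, to AGGAAG or CTTCCT (a core bound by ETS factors), to TGTGGT or ACCACA (RUNX), to GTAAACA (FOXO) and to TATAAA or TTTATA (the letters of a TATA box).
Gimap4: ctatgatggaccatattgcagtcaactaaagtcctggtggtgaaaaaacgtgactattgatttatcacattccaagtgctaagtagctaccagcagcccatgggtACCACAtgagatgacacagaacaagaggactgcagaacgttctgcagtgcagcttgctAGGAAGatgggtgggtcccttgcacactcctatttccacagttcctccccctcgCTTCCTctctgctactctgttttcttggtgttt
Gimap3: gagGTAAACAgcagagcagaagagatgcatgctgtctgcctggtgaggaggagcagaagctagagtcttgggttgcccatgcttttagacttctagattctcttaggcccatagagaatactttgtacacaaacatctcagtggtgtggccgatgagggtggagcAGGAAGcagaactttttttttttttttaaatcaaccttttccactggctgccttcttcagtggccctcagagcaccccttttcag
Gimap6: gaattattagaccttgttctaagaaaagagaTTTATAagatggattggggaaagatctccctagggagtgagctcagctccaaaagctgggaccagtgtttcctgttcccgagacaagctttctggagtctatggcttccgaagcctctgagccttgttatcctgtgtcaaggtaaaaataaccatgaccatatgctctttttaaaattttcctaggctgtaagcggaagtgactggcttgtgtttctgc
Gimap7: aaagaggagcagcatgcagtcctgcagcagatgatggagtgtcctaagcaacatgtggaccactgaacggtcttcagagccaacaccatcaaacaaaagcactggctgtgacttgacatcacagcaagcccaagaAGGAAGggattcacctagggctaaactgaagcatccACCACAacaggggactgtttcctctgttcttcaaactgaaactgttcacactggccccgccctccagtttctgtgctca
Gimap5: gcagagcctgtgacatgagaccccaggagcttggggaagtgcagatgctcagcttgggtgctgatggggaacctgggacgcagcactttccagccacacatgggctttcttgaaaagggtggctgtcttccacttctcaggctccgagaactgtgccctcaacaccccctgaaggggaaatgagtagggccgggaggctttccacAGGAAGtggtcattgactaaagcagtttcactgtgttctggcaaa

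The ETS letters AGGAAG stood in 7 of the 9 start windows of the members, against 28.7% of all 21045 start windows of the same length. Gimap8 has 2 annotated starts whose windows overlap, and only the second of them held a match. Gimap6 was the other window without these letters, and it alone held the TATA letters, which 11.7% of all windows have. They lay on the opposite strand, 219 to 214 bases before the start. Only exact letters were searched, so other forms of a motif were not counted. The RUNX letters TGTGGT were in 3 windows, those of Gimap4, Gimap7 and Gimap1, against 12.2% of all windows. The FOXO letters GTAAACA were in the Gimap3 window, against 2.64%. The 4 other motifs searched were AGATAA for GATA factors, CTTTGA for TCF factors, GGGTGTG for KLF factors and CAGCTG for E proteins, on both strands. They had no match in a member's window, against 8.84%, 12.8%, 7.13% and 12.2% of all windows. None of the 13 matches overlapped a match of another motif. A match describes the letters and is not a measured binding site.

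The cluster was covered by accessible regions over a larger part of its length in naive CD4 T cells than in DN3 cells. Regions covered 12.3% of the window in the DN3 control and 11.2% in the deficient DN3 library, against 20.3% and 17.7% in the naive control and deficient libraries. The covered length in naive cells was thus 1.64 times that in DN3 cells in the controls and 1.57 times in the deficient libraries. The median of all genes' windows went the other way, with ratios of 0.885 and 0.861, and 3.03% and 2.29% of 15082 genes had a higher ratio than the cluster. Among the members, the ratio was highest for Gimap3, at 2.60 in the controls and 2.47 in the deficient libraries. It was lowest for Gimap8 in the controls, at 1.15, and for Gimap1 in the deficient libraries, at 1.16. The median width of the cluster's regions, 655 and 660 bp in DN3 cells and 928 and 739 bp in naive cells, was close to that of the whole lists, 666 and 645 bp and 894 and 732 bp. The widest region spanned 3812 and 2780 bp in naive cells against 1741 and 1638 bp in DN3 cells. In bulk libraries, fewer cells with an open site and less opening per cell cannot be told apart.

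**Figure D1:**
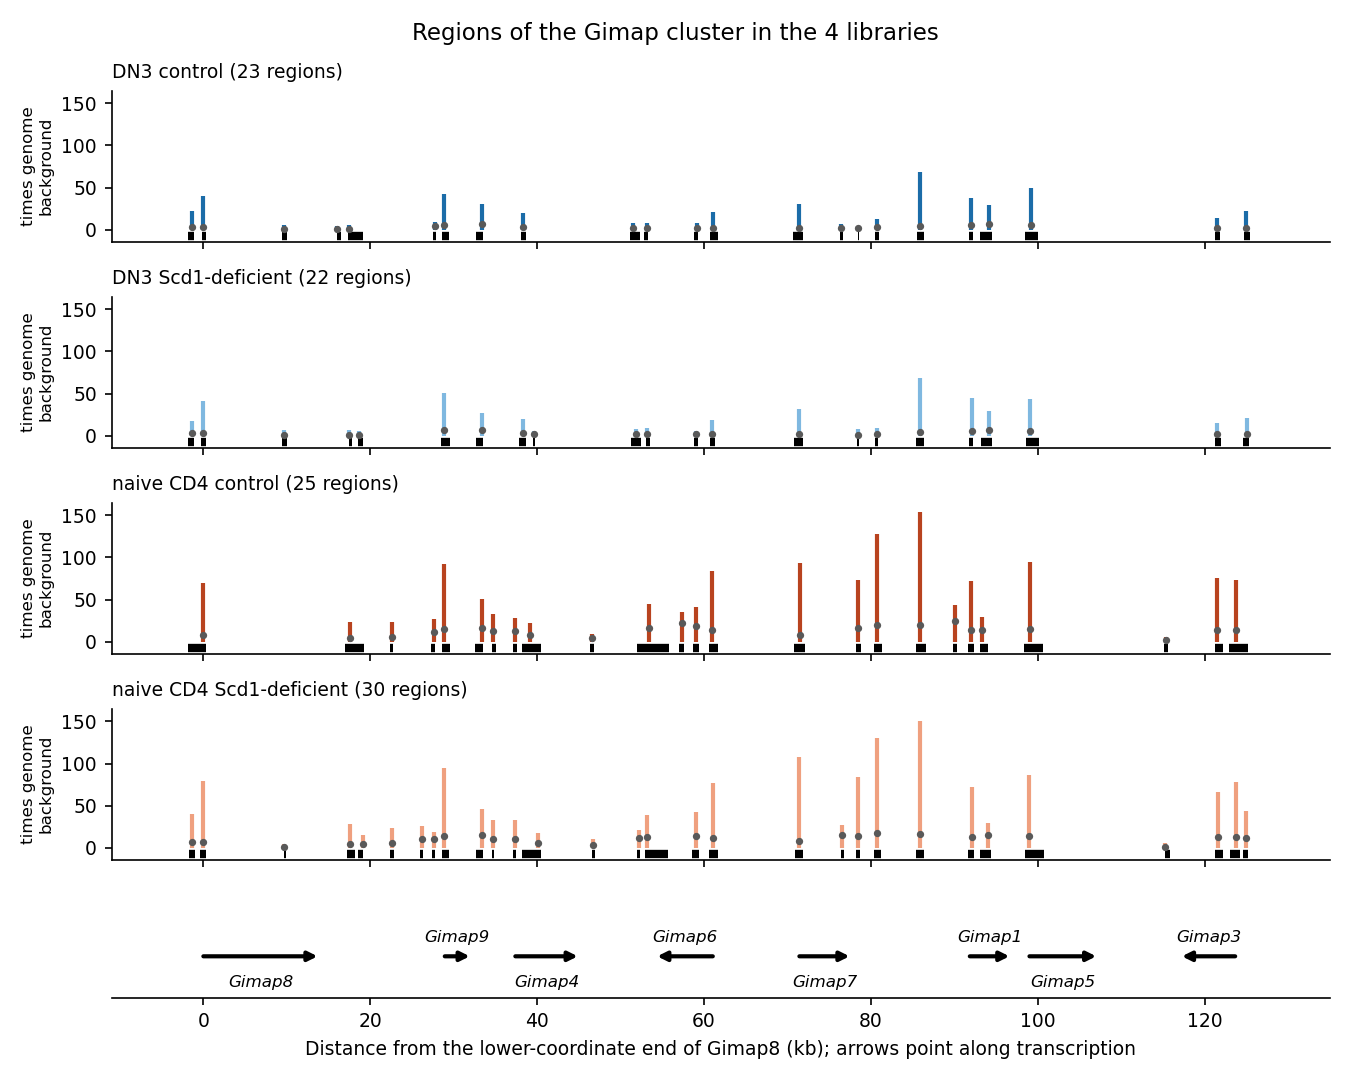
Regions of the Gimap cluster in the 4 libraries, by distance in kb from the lower-coordinate end of Gimap8; black bars are regions, coloured lines the fragments at each summit and grey points the local background, both divided by the library's genome background, and arrows show the genes. The lines reach 68.0 and 67.9 in the DN3 libraries and 154 and 150.3 in the naive libraries, and the grey points lie higher in the naive libraries.

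Of the 29 joint regions, 17 were called in all 4 libraries, which is 58.6% against 41.5% of all joint regions. Another 5 were called in both naive libraries and neither DN3 library, 17.2% against 5.11%. The reverse pattern, both DN3 libraries and neither naive library, was found at 0 of 29 regions of the cluster, although 28.3% of all joint regions had it. The remaining 7 had mixed calls, against 25.2%. List by list, 3 of 23 DN3 control regions had no overlap in the naive control, against 47.2% of that list, and 7 of 25 naive control regions had none in the DN3 control, against 15.0%. In the deficient libraries these were 0 of 22 DN3 regions, against 43.3%, and 9 of 30 naive regions, against 16.0%. A region that was not called is not shown to be closed, since each list has its own threshold.

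For regions called in all libraries, the strength was compared by the number of fragments piled up at the summit. This number was recovered from the deposited fold and −log10 p, and was divided by the lowest local background of the same library, here called the genome background. In the order control and deficient, that background stood at 4.72 and 4.47 fragments for DN3 cells and at 5.12 and 3.65 for naive cells. Differences between libraries were then centred on the median of the 37418 regions called in all 4. A region counted as higher in a cell type when this summit signal was at least 2-fold higher in both genotypes.

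Of the 17 common regions, 9 were higher in naive CD4 T cells, against 5.3% of all common regions, and 0 were higher in DN3 cells, against 13.8%. The median log2 difference, naive minus DN3, was 1.43 in the controls and 1.36 in the deficient libraries, or 2.69-fold and 2.56-fold. Of all common regions, 3.86% and 3.30% lay above these medians. At 15 of the 17 regions both naive values over genome background exceeded both DN3 values, against 53.0% of all common regions. The other two lie inside Gimap4 and Gimap1.

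**Figure D2:**
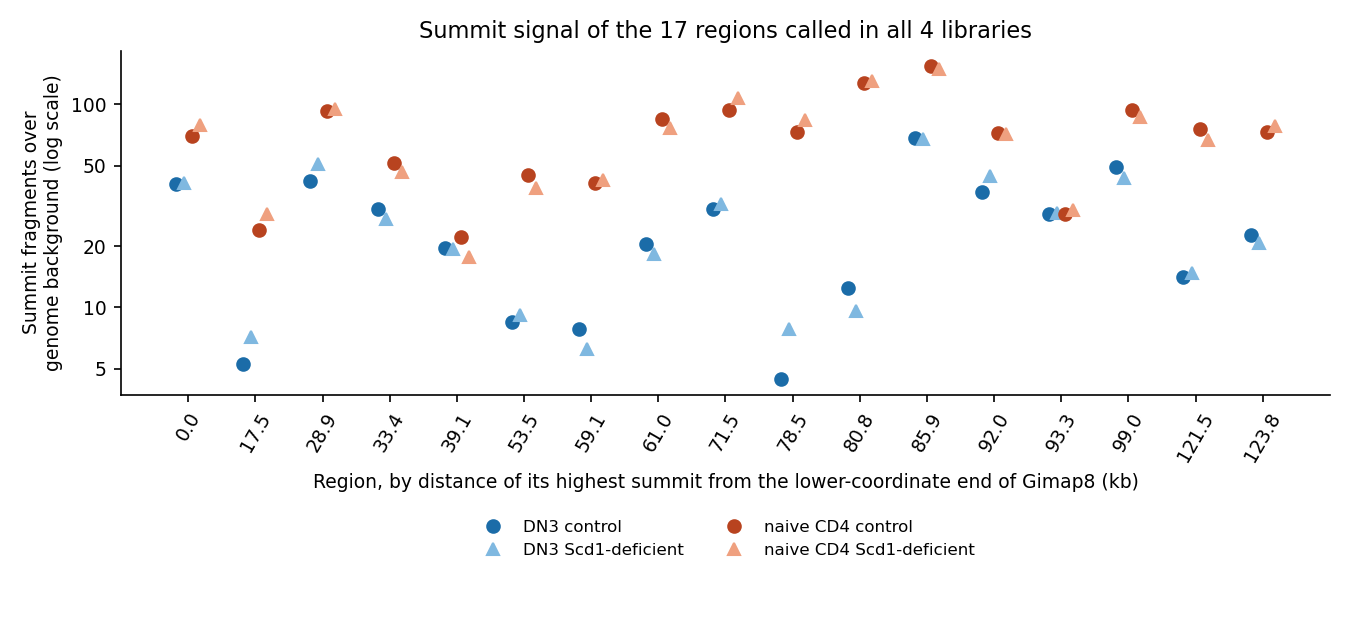
Summit fragments over genome background (log scale) of the 17 regions called in all 4 libraries, ordered by distance in kb from the lower-coordinate end of Gimap8; circles are controls, triangles Scd1-deficient libraries, blue DN3 and red naive CD4. The naive points lie above the DN3 points at 15 of the 17 regions, and the widest gaps are at the regions between Gimap7 and Gimap1.

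Within 1 kb of either annotated gene end, 7 and 8 of the 8 members had a region in the DN3 control and deficient libraries and 8 and 8 in the naive ones, so by this measure the cell types were nearly alike. A narrower reading, chosen after the data were seen, asked whether the start itself lay inside a region. In both naive libraries all 8 members had their start inside a region. In both DN3 libraries this held for 6 of 8, and the starts of Gimap4 and Gimap3 were outside every region. In the DN3 control the order of summit fragments at the called starts was Gimap5, Gimap9, Gimap8, Gimap1, Gimap7 and Gimap6, and the 95% counting intervals of neighbours in it overlapped except at the step to Gimap6. In the naive control the order was Gimap5, Gimap7, Gimap9, Gimap6, Gimap3, Gimap1, Gimap8 and Gimap4, and the intervals overlapped except at the step to Gimap4. Over all 21045 annotated starts, 0.361% lay inside a region of both naive libraries and of neither DN3 library, and 51.5% inside a region of all 4.

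Gimap4, a member that has been tied to T cell apoptosis, is transcribed on the plus strand from 48684578. In the naive libraries a region over this start, within 48684323 to 48684768, had 142 fragments at its summit in the control and 121 in the deficient library. The summits lay 71 and 68 bases before the start, inside the sequence shown above. The −log10 q was 14.8 and 22.5 and the deposited fold 2.20 and 2.97. No DN3 region covered the start, and the nearest DN3 summits were inside the gene, 892 and 880 bases after the start, with 93 and 87 fragments. That region inside Gimap4, from 48685071 to 48687669 when merged, had 114 and 65 fragments in the naive libraries. It was 19.7 and 19.4 times the genome background in DN3 cells and 22.3 and 17.8 times in naive cells, so before centring the cell types overlapped there. After centring, its log2 difference was −0.002 (−0.41 to 0.41) in the controls. In the deficient libraries it was −0.52 (−1.01 to −0.04), on the DN3 side. Its summits in the 4 libraries were spread over 1811 bp, so they do not mark 1 site.

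Gimap3, a close relative of Gimap5, is transcribed on the minus strand from 48770851. Its merged start region, from 48770139 to 48772647, had 107 and 93 fragments in the DN3 control and deficient libraries and 375 and 287 in the naive ones. The naive summits lay 94 bases before the start, while the DN3 summits lay 1333 and 1392 bases before it, so the strongest point was at a different place in each cell type. Its call as higher in naive cells, with log2 differences of 1.51 and 1.52, thus compares different places. In the deficient naive library a separate region from 48771821 to 48772342, with 160 fragments and a −log10 q of 37.7, overlapped the span of the DN3 summits. It was 43.8 times the genome background, against 20.8 times at the summit of the deficient DN3 library. A second Gimap3 region lies inside the gene, 2122 bases after the start in the naive control. It had 67, 66, 386 and 244 fragments in the DN3 control, DN3 deficient, naive control and naive deficient libraries. The log2 difference in summit signal was 2.23 in the controls (95% counting interval 1.85 to 2.63) and 1.79 in the deficient libraries (1.39 to 2.20). These intervals, like all those given here, cover counting error only, and PCR duplicates may be among the fragments.

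Gimap6, which binds an autophagy protein of the GABARAP family, had a start region in every library, with summits 22 or 50 bases after the start at 48708244. The summit held 97 and 82 fragments in the DN3 libraries and 432 and 280 in the naive ones, in the order control and deficient. This was 20.6 and 18.3 times the genome background against 84.4 and 76.6 times, a log2 difference of 1.86 (1.54 to 2.19) in the controls and 1.67 (1.31 to 2.04) in the deficient libraries. The deposited fold ran the other way, at 10.2 and 9.53 in DN3 cells and 5.84 and 6.58 in naive cells. Another region inside Gimap6, from 48705786 to 48706568, had 37 and 28 fragments in DN3 cells against 210 and 155 in naive cells. Beyond the end of Gimap6, a merged region from 48698375 to 48702937 had 40 and 41 against 230 and 142. All 3 common regions in and beyond Gimap6 were thus higher in naive cells, although the summits of the last were spread over 1959 bp.

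Gimap7, a member that lacks the membrane tail, had summits within 46 bases of its start at 48718621 in all 4 libraries. They held 145 and 144 fragments in the DN3 control and deficient libraries and 479 and 395 in the naive ones. The −log10 q was 111 and 106 in DN3 cells and 306 and 295 in naive cells. The log2 difference in summit signal was 1.43 (1.16 to 1.71) and 1.36 (1.08 to 1.64), and the naive values lay well above the DN3 values.

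The starts of the other 4 members were open in all libraries and differed by less than 2-fold after centring. Gimap5, whose product sits on lysosomes and is needed for T cell survival, had 233 and 195 fragments at its start in DN3 cells and 482 and 317 in naive cells. This was 49.4 and 43.6 times the genome background against 94.2 and 86.8 times. Its log2 difference was 0.75 (0.53 to 0.98) and 0.60 (0.34 to 0.86). Gimap9 had 199 and 227 fragments in DN3 cells and 473 and 347 in naive cells, with log2 differences of 0.95 and 0.51. Gimap1, needed for mature lymphocytes, had 175 and 198 against 369 and 262, with 0.78 and 0.30. Gimap8, whose protein is the largest of the family, had 191 and 183 against 357 and 288, with 0.61 and 0.55. For these members the naive values over genome background were above both DN3 values, and the summits lay within 84 bp of each other over the 4 libraries, except at Gimap5, where the spread was 223 bp. A region inside Gimap1, from 48740274 to 48741747, had 136 and 130 fragments in DN3 cells and 148 and 110 in naive cells, and its summits were spread over 836 bp. Its 95% counting intervals included 0 in both genotypes, with log2 differences of −0.17 (−0.52 to 0.17) and −0.34 (−0.72 to 0.04).

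The widest differences lay between Gimap7 and Gimap1, outside any member's body. A region just beyond Gimap7, from 48725465 to 48726023, had 21 and 35 fragments at its summit in the DN3 control and deficient libraries and 376 and 305 in the naive ones. Its log2 difference was 3.87 (3.23 to 4.58) in the controls and 3.02 (2.52 to 3.57) in the deficient libraries, and 0.0107% and 0.102% of all common regions had a larger one. By −log10 q it went from 3.23 and 12.8 in DN3 cells to 122 and 124 in naive cells. In its own list 97.8% of regions were stronger in the DN3 control and 31.8% in the naive control.

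The next region, from 48727557 to 48728484, had 59 and 43 fragments in DN3 cells and 652 and 475 in naive cells. This was 12.5 and 9.61 times the genome background against 127 and 130.0 times. The log2 difference was 3.17 (2.79 to 3.58) and 3.36 (2.91 to 3.85). The 4 summits lay within 8 bp of each other, so the same site was measured in both cell types.

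Another region of this stretch, from 48732565 to 48733781, lay 5984 bp before the start of Gimap1 and was the strongest of the cluster in every library. It had 321 and 304 fragments in DN3 cells and 788 and 549 in naive cells. The −log10 q was 237 and 225 in DN3 cells and 398 and 311 in naive cells. Unlike its neighbours it was already strong in DN3 cells, where 7.29% and 7.67% of the regions of the list were stronger, against 10.1% and 9.92% in the naive lists. Its log2 difference was 1.00 in the controls and 0.75 in the deficient libraries, under the 2-fold limit in the latter. The summits of the 4 libraries lay within 3 bp.

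Beside the Gimap4 start, 4 regions were called in both naive libraries and neither DN3 library. One lay between Gimap8 and Gimap9, from 48669503 to 48669980, with 123 and 87 fragments in the control and deficient naive libraries and a −log10 q of 34.3 and 26.1. Another, from 48681755 to 48682275, lay between Gimap9 and Gimap4, with 171 and 121 fragments and 25.5 and 22.1. The other two were weak. Between Gimap4 and Gimap6 the region from 48693584 to 48694104 had 45 and 37 fragments and a −log10 q of 3.75 and 5.39, and between Gimap5 and Gimap3 the region from 48762338 to 48763055 had 31 and 20 and 6.61 and 4.45. A pair of common regions completes the 17. One between Gimap8 and Gimap9, from 48664185 to 48666388, had 25 and 32 fragments in DN3 cells and 123 and 105 in naive cells, with log2 differences of 2.003 and 1.61. The other, 3964 bp before the start of Gimap4, had 144 and 122 against 262 and 170, with 0.57 and 0.38.

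The background around the summits was also higher in naive cells. It comes from the same libraries and can include fragments of nearby regions, so it is not independent of the summit signal. This local background, which MACS2 estimates from the surroundings of a summit, was at least 2-fold higher in naive cells in both genotypes at 14 of the 17 common regions, against 6.04% of all common regions. Both naive values over genome background exceeded both DN3 values at 17 of 17, against 50.7%. The median log2 difference was 1.97 in the controls and 1.59 in the deficient libraries. Over the common regions the local background ran from 1.09 to 7.21 times the genome background in the DN3 control and from 4.80 to 20.1 times in the naive control. It ran from 1.43 to 7.05 and from 4.21 to 17.5 times in the deficient libraries. Over all regions of the cluster it was highest just before Gimap1, at 24.9 times in the naive control, in a region called in that library alone.

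**Figure D3:**
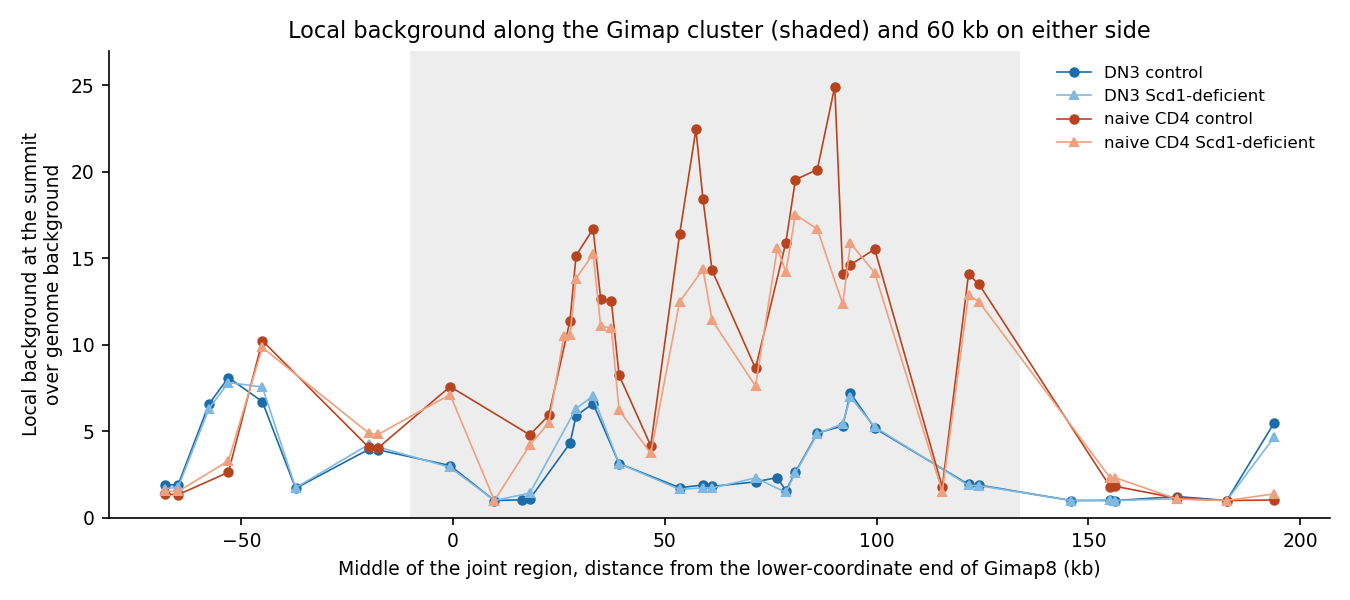
Local background at the summit over genome background, by distance in kb from the lower-coordinate end of Gimap8, for the regions of the cluster (shaded) and of 60 kb on either side; circles are controls, triangles Scd1-deficient libraries, blue DN3 and red naive CD4. Within the cluster the naive control reaches 24.9 and the deficient naive library 17.5, against 7.21 and 7.05 in the DN3 libraries.

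The deposited fold, which is the summit divided by this local background, therefore gave another picture of the same regions. It was at least 2-fold higher in naive cells in both genotypes at 0 of 17 regions, against 1.69% of all common regions. It was at least 2-fold higher in DN3 cells at 1 of 17, the region inside Gimap4, against 2.43%. The median log2 difference was −0.55 in the controls and −0.52 in the deficient libraries. In each genotype it was above 0 at 3 regions, which included those with the widest summit differences. The fold difference was 0.82 and 0.18 at the region just beyond Gimap7 and 0.56 and 0.97 at the next one. At 12 of 17 regions the summit signal was higher and the fold lower in naive cells in both genotypes, against 11.5% of all common regions. The −log10 q followed the fold at some regions and not at others. At the Gimap6 start, where the fold was lower in naive cells, it was 63.8 and 51.8 in DN3 cells and 177 and 128 in naive cells. At the region inside Gimap1, where the fold was 3.91 and 4.07 in DN3 cells and 1.97 and 1.88 in naive cells, it was 37.2 and 37.3 in DN3 cells and 11.5 and 7.39 in naive cells. Fold and −log10 q belong to each library's own list, and q also grows with depth.

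**Figure D4:**
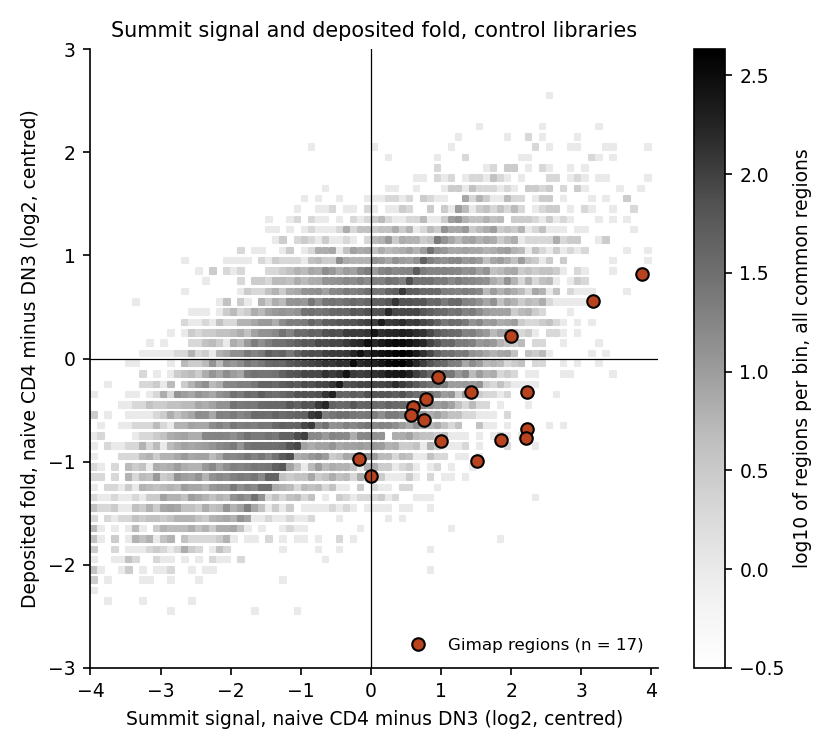
Log2 difference, naive CD4 minus DN3 in the control libraries, of the summit signal (horizontal) and of the deposited fold (vertical), both centred on all common regions; grey squares count the 37418 common regions and red points are the 17 Gimap regions. Of the 17 Gimap points, 15 lie above 0 in summit signal and 14 below 0 in deposited fold, with medians of 1.43 and −0.55.

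No region of the cluster passed the limit between genotypes in both cell types. Summit signal at least 1.5-fold higher in the same genotype in both cell types was found at 0 of 17 regions in either direction, against 0.0481% of all common regions for higher in Scd1-deficient cells and 0.0428% for higher in controls. In DN3 cells the median log2 difference, deficient minus control, was 0.01, with a range of −0.38 to 0.82, and the 95% counting interval excluded 0 at 0 of 17 regions. With the shares of all common regions so low, the count of 0 of 17 in both cell types says little about the cluster. The highest value in DN3 cells, 0.82 (−0.00 to 1.67), was that of the region just beyond Gimap7, which rests on 21 and 35 fragments. Within DN3 cells it was the 1 region past 1.5-fold, and 0.0909% of all common regions had a higher value. In naive cells the median was −0.14 after centring and 0.03 before it, so its direction depended on the centring. The range after centring was −0.49 to 0.09. After centring, 13 of 17 regions were below 0 and the interval excluded 0 at 7, all lower in the deficient library. The share of all common regions whose interval excludes 0 was not computed, so it is not known whether 7 of 17 is unusual. Without centring, the interval excluded 0 at 0 regions on the lower and 1 on the higher side. The middle 50% of all common regions, after centring, ran from −0.17 to 0.21 in naive cells.

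**Figure D5:**
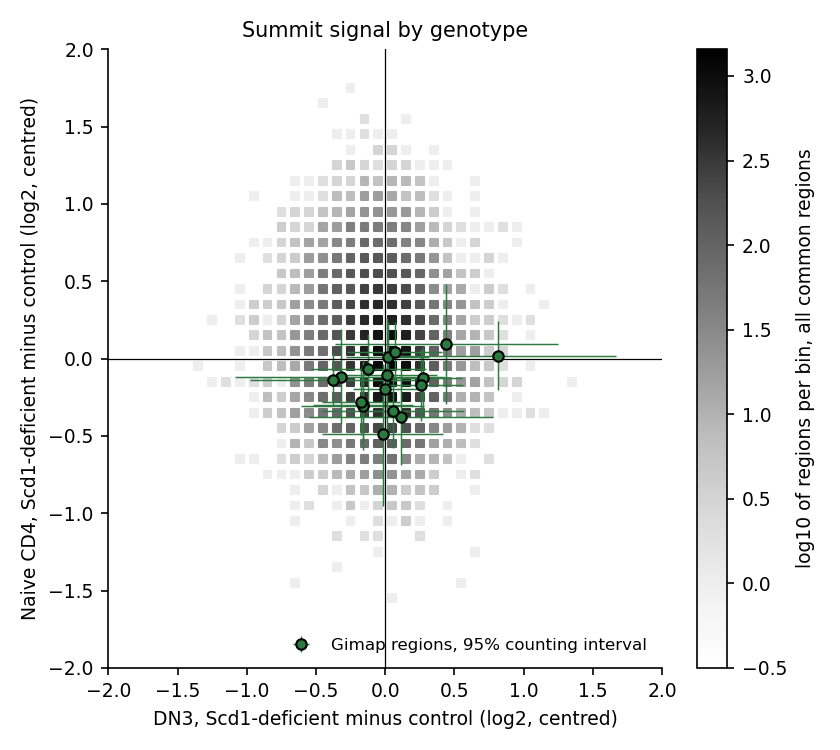
Log2 difference in summit signal, Scd1-deficient minus control, in DN3 cells (horizontal) and naive CD4 T cells (vertical), centred on all common regions; grey squares count the 37418 common regions, and green points with 95% counting intervals are the 17 Gimap regions. The points lie between −0.38 and 0.82 in DN3 cells and between −0.49 and 0.09 in naive cells. The point at 0.82 is at the thin edge of the grey cloud, where 0.0909% of all common regions were higher in DN3 cells.

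By presence, the regions called in 1 genotype alone were weak by −log10 q, and their numbers were near the shares of the whole lists. In DN3 cells 3 of 23 regions of the control lacked a counterpart in the deficient library, against 10.4% of the list, and 1 of 22 deficient regions lacked one in the control, against 9.48%. Their −log10 q did not exceed 5.36. In naive cells 2 of 25 control regions had no counterpart, against 5.77%, and 3 of 30 deficient regions had none, against 12.4%. The stronger control region, from 48737088 to 48737504 before Gimap1, had 225 fragments and a −log10 q of 12.6, but a deposited fold of 1.76. The strongest by −log10 q in the deficient library, from 48673203 to 48673463, had 97 fragments and 13.1. At the summit these naive regions were not all weak. The 2 control regions stood at 44.0 and 35.0 times the genome background and the 3 deficient ones at 26.55, 27.1 and 4.93 times. The starts of Gimap8 and Gimap3 each fell in 1 wide region in the naive control and in 1 of 2 narrower regions in the deficient library.

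No region in the 60 kb on either side of the cluster was at least 2-fold higher in naive cells in both genotypes. In the 60 kb before the window, 6 joint regions were called in all 4 libraries and 0 of them were higher in either cell type, while 2 were called in both DN3 libraries alone. In the 60 kb beyond it, 5 were common, 0 passed the limit for naive cells and 1 was higher in DN3 cells, while 1 was called in both DN3 libraries alone. The first count rests on the limit, since a region from 48829436 to 48830295 had log2 differences of 1.02 and 0.99, and another from 48801949 to 48802686 had 0.64 and 1.16. The DN3-higher region, by Tmem176a and Tmem176b, had log2 differences of −2.80 and −1.86. Of these 14 neighbouring joint regions, 0 were called in both naive libraries alone, against 5.11% of all joint regions. The DN3-only pattern was that of 28.3% of all joint regions. Over all common regions 5.3% were higher in naive cells and 13.8% in DN3 cells. With so few neighbours, the counts of 0 for naive cells are near the shares of all regions. The strongest local background of a neighbouring region in naive cells was 10.2 and 9.85 times the genome background, at Zfp775, where the DN3 values were 6.72 and 7.57.

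A list of 20 genes held survival and autophagy partners of GIMAP proteins and transcription factors that have been proposed to act on them. Of its 144 common regions, 17 were higher in naive cells and 17 in DN3 cells, which is 11.8% each, against 5.3% and 13.8% of all common regions. By genotype 0 differed in both cell types. A further 46 of its 293 joint regions were called in both naive libraries alone, 15.7% against 5.11%, and 32 in both DN3 libraries alone, 10.9% against 28.3%. Its share of naive-only regions was thus close to the cluster's 17.2%. The median log2 difference was 0.44 and 0.24, with 0 as the median of all common regions by construction. Bcl2, the survival factor, had 10 naive-only regions of 36. Lef1, a T cell factor, had 11 of 30, and 4 of its 11 common regions were higher in naive cells. Runx1, a factor of T cell development, had 8 DN3-only regions of 41, and 4 of its 19 common regions were higher in DN3 cells against 1 higher in naive cells. Its DN3-only share was below the 28.3% of all joint regions, and its median log2 difference was 0.31 and −0.05. At its gene ends the signal was 50.4 and 53.2 times the genome background in DN3 cells and 121 and 101 in naive cells. Notch1, the receptor that drives early T cell development, had 6 DN3-only regions of 15. Yet its common regions had a median log2 difference of 0.48 and 0.34. At its gene ends the signal was 101.9 and 104.6 times the genome background in DN3 cells and 158.1 and 155.5 in naive cells. At Bcl2l1, a relative of Bcl2, 3 of 8 common regions were higher in DN3 cells.

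Other genes shared the cluster's distribution of covered length over the 4 libraries, expressed as each library's share of its list. Among 2651 genes with at least 5 regions in the naive lists, the 5 closest by Euclidean distance were Bcl2 (0.0395), Zfand6 (0.0443), Mbd2 (0.0447), Sgms1 (0.0529) and St6gal1 (0.0565). Bcl2 had 22 and 20 regions in the DN3 libraries and 30 and 30 in the naive ones. This likeness rests on 4 libraries and is a description.

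Markers were read as the strongest region within 1 kb of either gene end, which can be a different region in each library. The DN3 list was called at 7 and 7 of 7 genes in the DN3 libraries and 4 and 5 in the naive ones, and Ptcra, the pre-T cell receptor chain, only in DN3 cells. Of its 30 common regions 6 were higher in DN3 cells and 0 in naive cells. At the gene ends of Il2ra, which encodes CD25, the signal was 23.1 and 32.2 times the genome background in DN3 cells and 46.7 and 45.4 in naive cells, and at Dtx1 37.9 and 36.0 against 86.6 and 88.7. The naive CD4 list was called at 7 of 7 genes in every library, with 10 of its 27 common regions higher in naive cells and 1 higher in DN3 cells. Over all common regions these shares were 5.3% for naive cells and 13.8% for DN3 cells. The general T cell list was called at 5 of 5 genes in every library. B cells also use Gimap genes. Their list was called at 3 of 6 genes in each library, with a summed signal of 72.4 and 70.0 times the genome background in DN3 cells and 87.4 and 103 in naive cells. Ms4a1 had no gene-end region in any library, but the Cd79a gene end had 71.2 and 78.8 in naive cells against none and 4.92 in DN3 cells. Cd79b and Ebf1 went the other way, at 21.2 and 16.99 in DN3 cells against 7.43 and 8.48 for Cd79b and at 47.2 and 48.1 against 8.80 and 15.9 for Ebf1. Of the B cell list's 44 joint regions, 17 were called in both DN3 libraries alone and 1 in both naive libraries alone. The myeloid list was called at 3 and 4 of 6 genes in DN3 cells and 3 and 3 in naive cells, with sums of 60.2 and 67.5 against 89.7 and 96.6, and Csf1r had none. The NK and CD8 list was called at 4 and 4 of 5 against 2 and 2, with 73.7 and 76.9 against 77.6 and 81.8, and Ncr1 had none. The erythroid and stromal list was called at 2 and 2 of 5 against 1 and 1, with 45.1 and 39.1 against 21.5 and 35.0, and Hba-a1 and Hbb-bt had none. The part of these cells in the Gimap result was not tested.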

How the data were processed

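ATAC-seq was done on 4 libraries, 1 per cell type and genotype. The submitters' processing notes name Trimmomatic, BWA, MACS2 and mm10, without versions. Not given in the sources used here are the settings, how duplicates were handled and how reads matching several Gimap genes were placed.

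The authors deposited 1 narrow peak list per library. The deposited score was not used for results. The deposited fold is the ratio of summit pileup to local background, and the deposited −log10 p and −log10 q belong to the summit in its own list. From fold and −log10 p, whole fragments at the summit were recovered within 0.05 for 100% of peaks. Total read depth is unknown, and the genome background stands in its place. Intervals are exact 95% intervals for counting error only.

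Peaks on chromosomes 1 to 19 and X that overlapped by at least 1 bp were merged into joint regions, each taking the summit with the most fragments per library. All genes and regions were processed in the same way with Python 3.11.15, numpy 2.4.6, pandas 2.3.3 and scipy 1.17.1, and only rows of the cluster are given. A gene-end region lies within 1 kb of an annotated end. Genes and start windows came from RefSeq tables of GRCm38.p6, in which all 8 members matched. Exons and introns were not annotated. The overlap and signal steps were tested on simulated data.

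The members, lists and motifs were chosen with earlier results of these data known. All members were named, and so were the flanking genes and list genes given with a value. The genes of similar pattern were the 5 closest by distance. List examples were chosen after their values were seen. Alternatives were other windows, region thresholds, scaling and the deposited fold. Proteins were not compared. One list member is not reported here.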

Additional observations from a re-analysis of the deposited data

How the results depend on the processing

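Of 87 alternatives over 23 results, 64 stayed close to the value reported, but 2 of these changed the sign of the naive CD4 genotype median, from −0.14 to 0.03 without centring and to 0.04 with the deposited fold. With gene bodies alone the cluster held 12 and 12 regions in the DN3 control and deficient libraries and 14 and 15 in the naive ones, with 1 naive-only region, 1 region only in the DN3 control and 1 only in the naive control. With 50 kb either side, 2 regions were called in both DN3 libraries alone. With the 46576 strongest regions of each list, the DN3 libraries had 13 and 13, there were 8 naive-only regions, 0 and 0 regions in the DN3 control or deficient library alone, and 5 and 1 in the naive control or deficient library alone. At a −log10 q of at least 10 there were 3 naive-only regions, 1 and 3 in the DN3 control or deficient library alone and 1 in the deficient naive library alone. These settings change which regions are counted, and the cause of the shifts was not tested. With the deposited fold in place of the summit, 0 regions were higher in naive cells and 1 in DN3 cells, and the median log2 difference was −0.55 in the controls and −0.52 in the deficient libraries instead of 1.43 and 1.36. Without centring, 10 regions were higher in naive cells. Among regions whose summits lie within 200 bp, an alternative chosen after seeing the data, 7 of 12 were higher in naive cells, against 4.76% of all such regions. Read by start sites instead of either gene end, also chosen after seeing the data, 6, 6, 8 and 8 members had a region against 7, 8, 8 and 8. No paired analysis was possible because the labels give no replicate numbers and each group has 1 library. The cell types were compared within each genotype, and an additive model of cell type and genotype was not run. Leaving out a library would empty a group and was not run. Weak regions, such as those of 20 to 45 fragments, are limited by counting error.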
